A study of Mus musculus with 6 samples.

Results

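The Schlafen genes described here are 7 mouse genes, Slfn1, Slfn2, Slfn3, Slfn4, Slfn5, Slfn8 and Slfn9, chosen by name from the 28533 rows of the deposited scaled table. They were put together with earlier results of the same comparison known, so the difference between phlebotomy and control is given for them as a description, without a test. RNA was counted in 6 femur libraries, 3 from mice after phlebotomy (removal of blood) and 3 from control mice. All were C57BL/6 mice labelled WT and 12 weeks old, and per the labels' protocols total RNA was made from an osteocyte-enriched fraction of bone. Osteocytes are the cells buried in the mineral of bone. The series title names erythroferrone, a hormone that lowers hepcidin, and the comparison asks how the transcriptome of this bone fraction differs after blood loss. The deposited columns carry an initial and the numbers 1, 2 and 4. P was taken as phlebotomy, and N as control by elimination, which limits every comparison, and libraries are called by column number.

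Schlafen genes encode proteins that share an N-terminal core. The short forms consist of little else, the intermediate forms add a middle part, and the long forms carry in addition a helicase-like part. The family is known from blood cells. Slfn2 is needed to keep mouse T cells and monocytes quiescent, Slfn4 belongs to the myeloid lineage, and the human long forms SLFN11 and SLFN13 act on transfer RNA and restrict viruses. Several mouse Schlafen genes are induced by type I interferon, whose receptor signals to a DNA element called ISRE.

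All 7 genes lie in 1 cluster on chromosome 11 (GRCm38, GENCODE M21), and all are annotated as protein-coding. Slfn5 (82951349 to 82964840, plus strand) comes first, followed by Slfn9 (82978390 to 82991830, minus) and Slfn8 (83002158 to 83020810, minus). Slfn2 (83065112 to 83070678), Slfn1 (83116849 to 83122670), Slfn4 (83175186 to 83190216) and Slfn3 (83191330 to 83215154) follow on the plus strand. The longest annotated coding sequences have 337 codons in Slfn1 and 378 in Slfn2, the short forms, 602 in Slfn4 and 640 in Slfn3, the intermediate forms, and 884 in Slfn5 and 910 in both Slfn8 and Slfn9, the long forms. The pseudogene Slfn10-ps lies between Slfn8 and Slfn2, and the long form Slfn14 beyond Slfn3.

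The promoters were read from RefSeq (GRCm38.p6, all 7 members matched by symbol) for interferon-related motifs, because several mouse Schlafen genes are induced by type I interferon. The windows searched ran from 250 bases before to 50 bases after each start, on both strands, for 3 patterns. These were the ISRE core (GAAA, any 2 bases, GAAA), the GAS element of interferon gamma signalling (TTC, any 3 bases, GAA) and the ETS-IRF composite bound by PU.1 with an IRF partner (GGAA, any 2 bases, GAAA). The ISRE core was present in 3 of 7 members, the long forms Slfn5, Slfn8 and Slfn9, against 3.44% of 32851 mouse promoter windows. The Slfn8 and Slfn9 matches have the same letters, in stretches that were 85.1% identical, so they may not be separate occurrences. The composite was present in 1 of 7, Slfn2, against 2.72% of windows, and GAS in 0 of 7, against 8.30%. Within a window the matches did not overlap one another. The windows of Slfn1, Slfn3 and Slfn4, and that of Slfn14, held none of the 3 letter patterns. The 250 bases before the start are shown for the 4 members with a match, 5′ to 3′ on the gene's strand, with the match in capitals.
Slfn9: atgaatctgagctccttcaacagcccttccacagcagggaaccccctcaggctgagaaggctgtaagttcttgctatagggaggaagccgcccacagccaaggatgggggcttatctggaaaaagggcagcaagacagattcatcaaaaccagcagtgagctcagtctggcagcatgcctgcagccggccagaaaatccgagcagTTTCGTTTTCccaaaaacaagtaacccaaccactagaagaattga
Slfn8: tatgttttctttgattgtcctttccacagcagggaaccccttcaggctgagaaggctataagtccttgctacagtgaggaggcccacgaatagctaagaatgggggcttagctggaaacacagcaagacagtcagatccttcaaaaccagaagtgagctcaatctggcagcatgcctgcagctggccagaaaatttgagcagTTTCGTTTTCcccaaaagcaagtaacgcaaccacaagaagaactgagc
Slfn5: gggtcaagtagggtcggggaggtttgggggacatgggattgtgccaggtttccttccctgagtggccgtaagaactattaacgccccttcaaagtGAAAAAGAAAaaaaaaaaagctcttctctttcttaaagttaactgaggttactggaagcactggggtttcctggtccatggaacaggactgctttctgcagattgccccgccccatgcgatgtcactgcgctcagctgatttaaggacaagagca
Slfn2: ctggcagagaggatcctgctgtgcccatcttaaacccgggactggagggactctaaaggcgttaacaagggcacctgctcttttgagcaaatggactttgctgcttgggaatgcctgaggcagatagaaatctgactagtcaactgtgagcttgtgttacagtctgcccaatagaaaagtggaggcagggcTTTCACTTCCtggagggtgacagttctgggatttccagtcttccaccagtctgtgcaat
These stretches are chr11:82991831-82992080 (minus strand) for Slfn9, chr11:83020811-83021060 (minus) for Slfn8, chr11:82951852-82952101 (plus) for Slfn5 and chr11:83064862-83065111 (plus) for Slfn2. Slfn9 and Slfn8 carry the same 10 letters, TTTCGTTTTC, from -45 to -36 and from -48 to -39 relative to the start. Their 250-base stretches were 85.1% identical over 242 aligned bases, the highest value among the pairs of Schlafen promoters compared. The Slfn5 match, GAAAAAGAAA, lies farther out, from -155 to -146, beside a run of A, and the Slfn2 match, TTTCACTTCC, from -59 to -50. The Slfn5 stretch was placed by the RefSeq start and lies inside the GENCODE span of the gene, which begins at 82951349. By the GENCODE annotation the Slfn5 match is therefore within the gene and not before its start. Slfn8 has a second RefSeq start, whose window overlaps the first and holds the same ISRE site. Relative to that start the site lies from -136 to -127.

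Sequence also bears on how well reads can be told apart. The coding sequences of Slfn3 and Slfn4 were 92.7% identical over 1785 aligned bases, and those of Slfn8 and Slfn9 92.7% identical over 2730. Of all stretches of 100 bases in the annotated transcripts, 3.71% of those of Slfn9, 3.38% of those of Slfn8 and 7.84% of those of Slfn10-ps occurred unchanged in another Schlafen transcript. The share was at most 0.128% in each other member. Reads were 126 bases long and paired, so most Slfn8 and Slfn9 fragments could be placed, but how the counting treated shared ones is not given in the sources used here, and the split between these genes is uncertain to that extent. The kit does not mark strand. Slfn5 overlaps the antisense gene Slfn5os, which held 2 counts in all, and Slfn2 overlaps the antisense gene Gm20234, so reads of these overlaps cannot be told apart by strand.

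The gene counts of a library totalled between 11219243 and 19015588, and levels are given as CPM, the TMM-scaled count relative to a fixed library total. A count of 3 was worth 0.164 to 0.296 CPM. Osteocyte markers were present in every library, with summed levels of 13660 to 24730 CPM after phlebotomy and 22530 to 48500 CPM in control. Marrow transcripts were present too, as neutrophil markers summed to 27930 to 44060 CPM after phlebotomy and 20430 to 48580 CPM in control. Phlebotomy 2 stood apart. It lay at -5.56 on the first principal component (46.1% of variance), whereas phlebotomy 1 and 4 lay at 45.3 and 26.6 and the controls between -38.1 and -10.5. It also held 2288 counts of Neo, 920 of EGFP and 403 of DsRed, transgene rows with at most 12 counts in any other library, although it is labelled WT. The members' log2 fold changes and the counts of calls in the gene lists are therefore also given without it. Nothing in the labels ties each library to its own animal, so errors measure the spread between libraries, which may be technical.

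The members spanned a wide range of levels. All 7 passed the filter on low counts, with 434 (Slfn3) to 18279 (Slfn2) reads over the 6 libraries. Per kilobase of annotated exon, the mean levels after phlebotomy were 138 ± 36.2 CPM per kb for Slfn2, 28.1 ± 4.84 for Slfn4, 20.6 ± 2.56 for Slfn1, 5.04 ± 0.553 for Slfn5, 4.89 ± 0.978 for Slfn8, 2.76 ± 0.722 for Slfn9 and 1.57 ± 0.519 for Slfn3 (SD, n = 3). In control they were 99.7 ± 13.3 CPM per kb for Slfn2, 27.8 ± 10.98 for Slfn4, 15.5 ± 7.12 for Slfn1, 4.10 ± 0.720 for Slfn5, 3.63 ± 0.504 for Slfn8, 1.19 ± 0.103 for Slfn9 and 1.15 ± 0.273 for Slfn3. The order was thus the same in both groups, with the short forms and Slfn4 above the long forms. Neighbours in it overlapped between libraries of a group for Slfn5 and Slfn8 in both groups, and in control also for Slfn4 and Slfn1 and for Slfn9 and Slfn3. Exon length was the union of annotated exons, which understates the level of a gene transcribed mainly as a short isoform. Slfn2 lay above 97.8% of the 18838 genes tested in level per kb, Slfn9 above 40.0% and Slfn3 above 32.6%. In a bulk sample, more cells of a type and more RNA per cell cannot be told apart.

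Among the short forms, Slfn2 reached 294, 175 and 219 CPM in phlebotomy 1, 2 and 4, against 150, 157 and 191 CPM in control 1, 2 and 4. Phlebotomy 1 was the highest library and phlebotomy 2 lay within the control range, so the groups overlapped. The log2 fold change was 0.47 ± 0.20 (SE of edgeR), and 0.59 without phlebotomy 2. Slfn1, which slows growth when overexpressed in mouse thymocytes, was at 42.1, 40.1 and 33.0 CPM in phlebotomy 1, 2 and 4, against 17.8, 25.3 and 43.6 CPM in control 1, 2 and 4. Control 4 was the highest of the 6 libraries and control 1 the lowest. Its log2 fold change of 0.41 ± 0.26 was 0.15 without control 1 and 0.80 without control 4. Leaving out phlebotomy 2 gave 0.34.

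The intermediate form Slfn4, which changes as macrophages differentiate and are activated, was at 113, 130 and 91.7 CPM in phlebotomy 1, 2 and 4, against 62.6, 120 and 148 CPM in control 1, 2 and 4. The controls spanned a wider range than the phlebotomy libraries and enclosed them. The log2 fold change was 0.01 ± 0.26, and it turned negative without control 1 (-0.28), without phlebotomy 2 (-0.15), without the filter on low counts (-0.05) and on the gene set kept by the authors (-0.07). Its near relative Slfn3, described in rodent T cells and gut epithelium, was the least abundant member per length. It was at 6.17, 3.32 and 6.57 CPM in phlebotomy 1, 2 and 4, against 3.25, 4.97 and 3.50 CPM in control 1, 2 and 4. Phlebotomy 1 and 4 lay above all controls, while phlebotomy 2 lay within the control range. The log2 fold change was 0.44 ± 0.31, and 0.65 without phlebotomy 2.

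Among the long forms, Slfn9 was the member with the largest difference and the only member whose groups did not overlap. It was at 20.9, 12.3 and 16.1 CPM in phlebotomy 1, 2 and 4, against 6.61, 6.94 and 7.80 CPM in control 1, 2 and 4. The raw counts behind these levels were 349, 189 and 255 after phlebotomy and 67, 127 and 116 in control. Controls lay close together, and phlebotomy 2, the lowest library after phlebotomy, was above each of them. The mean was 16.4 ± 4.30 CPM after phlebotomy and 7.11 ± 0.613 CPM in control (SD, n = 3), and the log2 fold change was 1.21 ± 0.23, a fold of 2.31. It ran from 1.02 to 1.34 with a library left out, the highest without phlebotomy 2, and 2.19% of all genes tested had a larger one. Groups likewise did not overlap for 10.1% of the genes tested with phlebotomy higher, and for 11.2% with phlebotomy lower.

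Slfn8, adjacent to Slfn9 and its nearest relative in coding sequence, was at 22.6, 15.4 and 21.9 CPM in phlebotomy 1, 2 and 4, against 14.9, 16.9 and 12.8 CPM in control 1, 2 and 4. Phlebotomy 1 and 4 were above all controls and phlebotomy 2 within their range. The log2 fold change was 0.43 ± 0.21, and 0.55 without phlebotomy 2. Slfn5, whose human relative SLFN5 is a nuclear antiviral factor, was at 35.4, 28.4 and 31.9 CPM in phlebotomy 1, 2 and 4, against 31.0, 22.1 and 24.8 CPM in control 1, 2 and 4. Only control 1 reached into the range of the phlebotomy libraries. The log2 fold change was 0.30 ± 0.19, and 0.34 without phlebotomy 2.

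**Figure D1:**
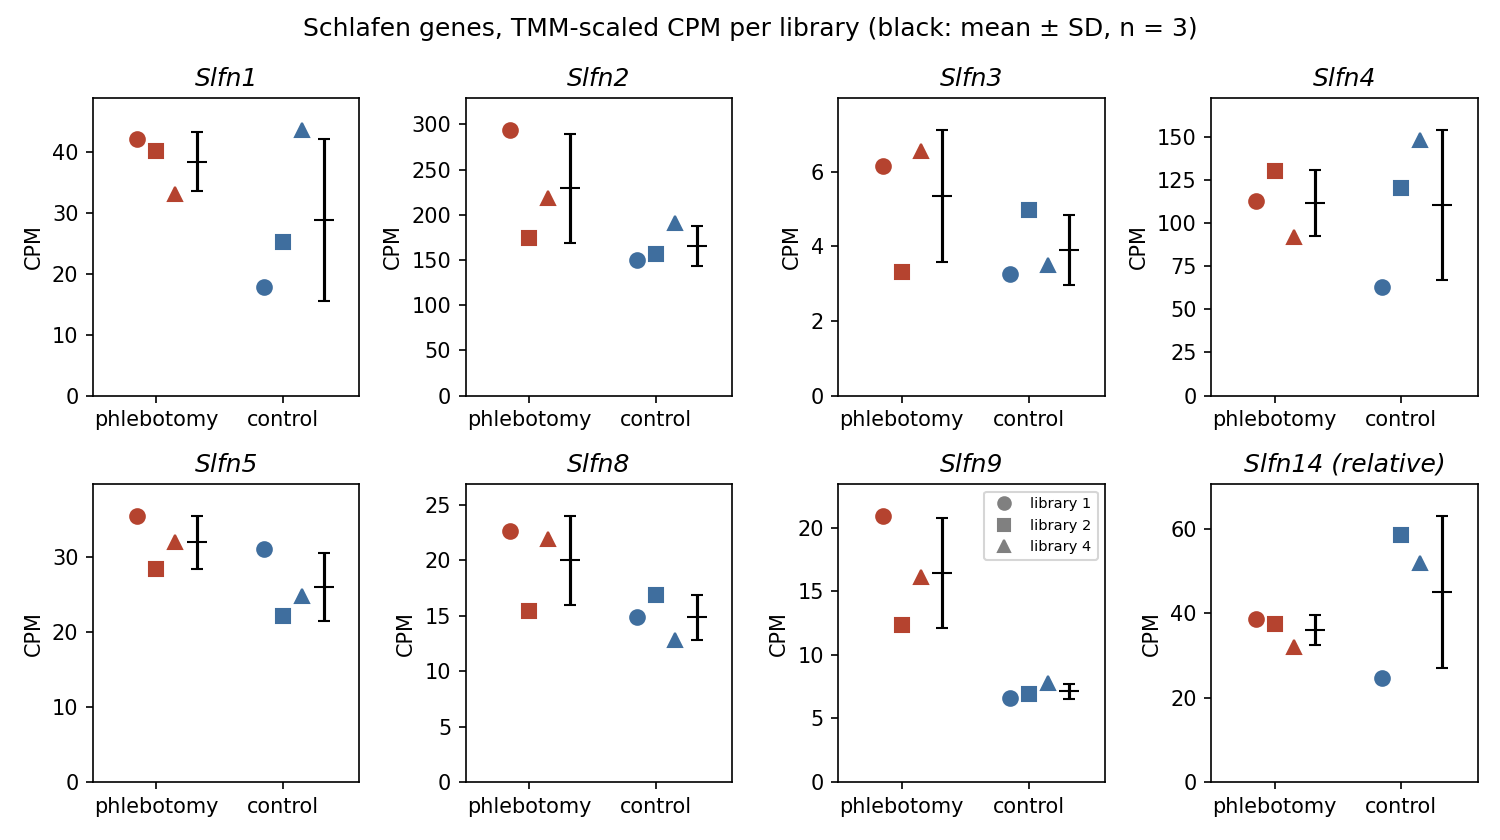
TMM-scaled CPM of the 7 Schlafen members and of the relative Slfn14 (vertical axes, linear from 0) in the 3 phlebotomy libraries (red) and the 3 control libraries (blue); symbols give the library number and black bars the mean ± SD. Slfn9 is the only member whose groups are apart, at 12.3 to 20.9 CPM after phlebotomy and 6.61 to 7.80 CPM in control. Control 1 is the lowest library for Slfn1, Slfn2, Slfn3, Slfn4, Slfn9 and Slfn14.

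By edgeR, 0 of the 7 members passed an adjusted p of 0.05 over all genes, where 0.0159% of the 18838 genes did. At an unadjusted p under 0.05 there were 2 of the 7, Slfn2 and Slfn9, both higher, against 7.01% of genes higher and 9.42% lower. Slfn9 alone passed in DESeq2, where 0.414% of genes passed higher and 1.09% lower, in edgeR without phlebotomy 2, where 1.75% passed higher and 2.99% lower, and in edgeR with no low-count filter, where 0.357% passed higher and 0.884% lower. In limma-voom 0 members passed, and 0 of all genes. Since the members were chosen with this contrast known, nothing is read from these counts. The log2 fold changes of the 7 ran from 0.01 to 1.21 with a median of 0.43, where all genes tested had a median of 0.00 and quartiles of -0.26 and 0.30. The median was 0.31 to 0.55 over the alternatives of scaling, filter, model and left-out library. The summed level of the 7 was 534, 404 and 420 CPM in phlebotomy 1, 2 and 4, against 286, 353 and 431 CPM in control 1, 2 and 4. The groups overlapped in that sum, since control 4 exceeded phlebotomy 2 and 4.

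Both tested relatives outside the 7 had negative log2 fold changes, that of Slfn10-ps turning positive without phlebotomy 2. Slfn14, a long form whose human counterpart is known from inherited platelet disorders, was at 38.6, 37.5 and 31.9 CPM in phlebotomy 1, 2 and 4, against 24.6, 58.5 and 51.9 CPM in control 1, 2 and 4. Control 1 was the lowest library and the other controls the highest. Its log2 fold change of -0.33 ± 0.26 was -0.63 without control 1 and -0.12 without control 2. Slfn10-ps was at 7.67, 5.15 and 8.41 CPM in phlebotomy 1, 2 and 4, against 7.10, 8.47 and 7.46 CPM in control 1, 2 and 4. Its log2 fold change of -0.12 ± 0.25 was 0.02 without phlebotomy 2. Slfnl1, on chromosome 4, held 9 counts in all and was not tested.

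**Figure D2:**
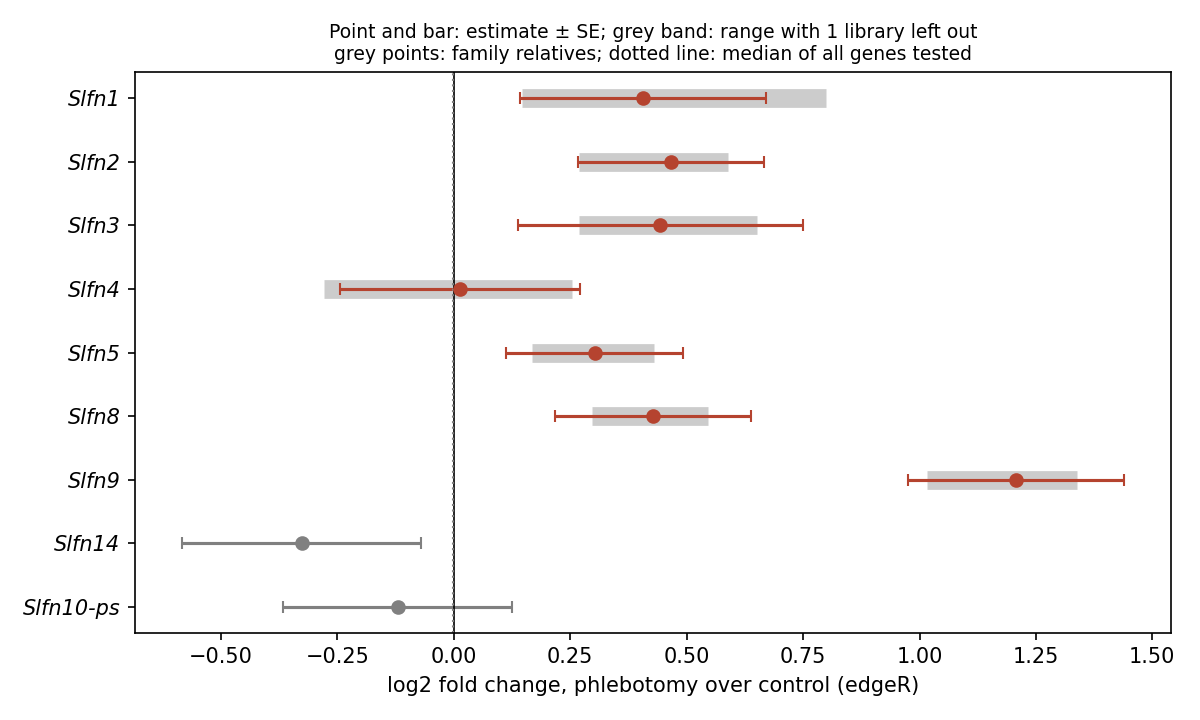
Log2 fold change, phlebotomy over control (horizontal axis, edgeR estimate ± SE), for the 7 members (red) and 2 relatives (grey points); grey bands give the range with 1 library left out, for members. Slfn9 lies at 1.21 with a band from 1.02 to 1.34, Slfn4 lies at 0.01 with a band from -0.28 to 0.25, and the median of all genes is at 0.00.

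Ratios of counts between members within a library do not depend on how libraries are scaled. The Slfn9 to Slfn8 ratio was 0.923, 0.801 and 0.735 in phlebotomy 1, 2 and 4, against 0.444, 0.411 and 0.611 in control 1, 2 and 4. All phlebotomy libraries were thus above all controls for this ratio, phlebotomy 2 included. The Slfn9 to Slfn10-ps ratio, between genes that share the most 100-base stretches, was 2.73, 2.39 and 1.92 in phlebotomy 1, 2 and 4, against 0.931, 0.819 and 1.05 in control 1, 2 and 4. The Slfn8 to Slfn10-ps ratio averaged 2.85 ± 0.209 after phlebotomy and 1.93 ± 0.199 in control (SD, n = 3), and here too the groups were apart. With Slfn8 and Slfn9 counts added up as 1 feature, which removes the split between them, the log2 fold change was 0.73.

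The Slfn4 to Slfn2 ratio behaved otherwise, at 0.384, 0.744 and 0.419 in phlebotomy 1, 2 and 4, against 0.418, 0.768 and 0.774 in control 1, 2 and 4. Both groups held a low and a high library, so that this ratio separated libraries but not the groups. The Slfn1 to Slfn2 ratio averaged 0.174 ± 0.0477 after phlebotomy and 0.169 ± 0.0552 in control. In shares of the family's level per kb, Slfn2 made up 61.6% to 72.4% after phlebotomy and 62.1% to 71.5% in control. Slfn9 made up 1.21% to 1.44% after phlebotomy and 0.707% to 0.880% in control, again without overlap. The Slfn9 ratios and shares reuse the Slfn9 counts, so they are not separate evidence of its difference. The Slfn4 to Slfn14 ratio was also apart, at 2.87 to 3.47 after phlebotomy and 2.06 to 2.85 in control. How often ratios of other gene pairs are apart was not tested.

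**Figure D3:**
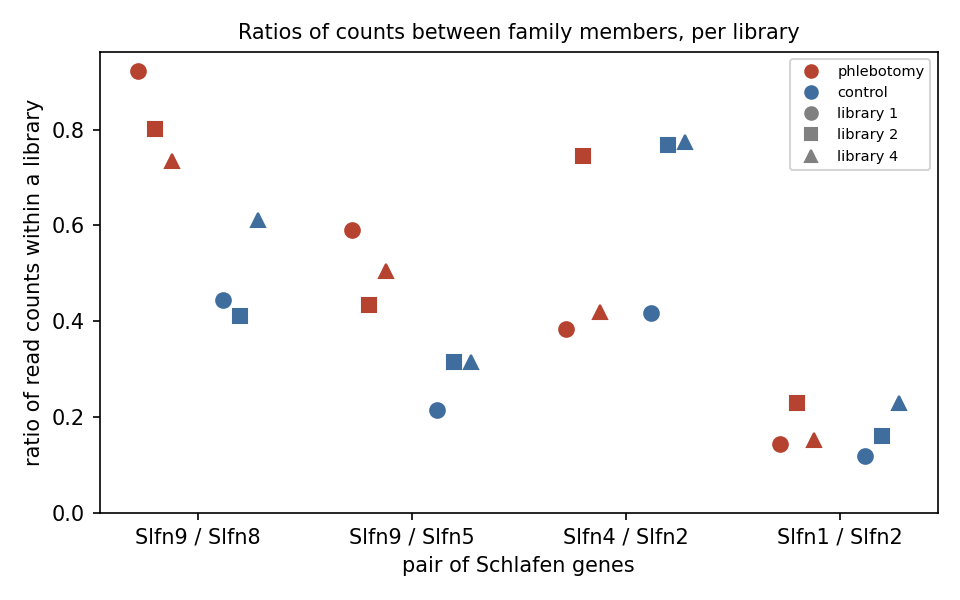
Ratios of read counts between pairs of Schlafen genes in each library (vertical axis, linear from 0), phlebotomy in red left of control in blue, with symbols for the library number. The Slfn9 to Slfn8 ratio lies between 0.735 and 0.923 after phlebotomy and between 0.411 and 0.611 in control, while the Slfn4 to Slfn2 and Slfn1 to Slfn2 ratios overlap.

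Across libraries the members fell into different profiles. Each gene's log2 level was centred on its mean over the 6 libraries, and profiles were compared by the root-mean-square difference over these libraries, as a description. Slfn3 and Slfn8 were the closest pair of members (0.16 log2 units), followed by Slfn5 and Slfn8 (0.23), Slfn2 and Slfn8 (0.24), Slfn2 and Slfn5 (0.25) and Slfn1 and Slfn4 (0.27). Slfn4 and Slfn9 were the farthest apart (0.68). The closest pair in coding sequence for Slfn4, Slfn3, was thus not its closest in profile, at 0.55. Control 1 was the lowest library for Slfn1 (-0.84), Slfn4 (-0.77), Slfn9 (-0.66), Slfn3 (-0.40) and Slfn2 (-0.36). Of these, Slfn1 and Slfn4 had their highest level in control 4, at 0.43 and 0.46.

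Control 1 and control 4 were likewise the lowest and the highest library for neutrophil markers. These markers lay at 0.26, 0.19 and -0.05 in phlebotomy 1, 2 and 4 and at -0.75, -0.05 and 0.41 in control 1, 2 and 4. Among the 13 lists of pathway and marker genes the neutrophil list lay nearest to Slfn4 (0.14) and Slfn1 (0.15), with the erythroid list next, at 0.15 and 0.20. Erythroid markers also had their lowest level in control 1 (-0.82) and their highest in control 4 (0.35). The part of these cells in the levels of Slfn1 and Slfn4 was not tested. For Slfn9 the nearest list was that of interferon-stimulated antiviral genes (0.24), and the next, monocyte and macrophage markers, was at 0.49. That nearest list had the highest median log2 fold change of the 13, at 0.72, with the neutrophil list next at 0.16. A gene with a large positive log2 fold change tends to lie nearest to such a list. The nearness is thus not separate from the log2 fold change of Slfn9, and a link between them was not tested. Slfn8 and Slfn3 lay nearest to the monocyte list (0.21 and 0.25) and next to the interferon-stimulated list (0.25 and 0.26). Slfn2 lay at 0.19 from NK cell markers, 0.20 from the interferon-stimulated genes and 0.21 from monocyte markers, and Slfn5 at 0.23 from the interferon receptor and signalling genes.

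**Figure D4:**
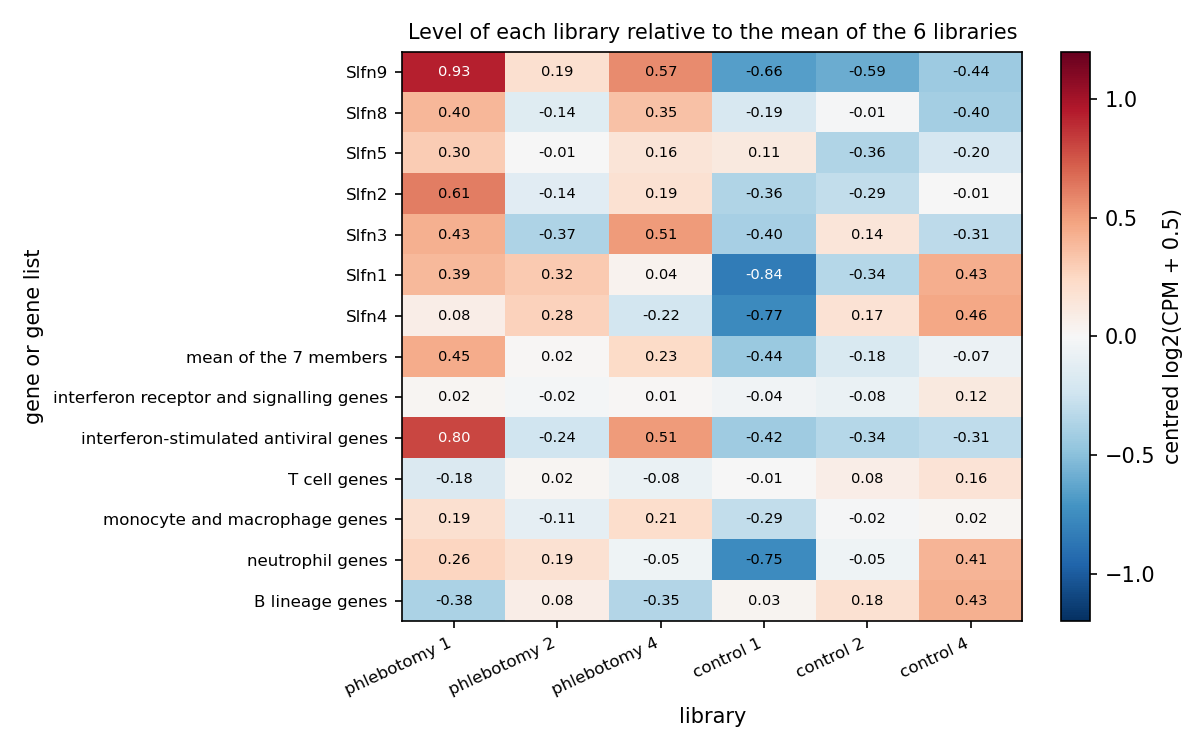
Centred log2(CPM + 0.5) of each Schlafen member, of their mean and of the mean over 6 gene lists (rows) in each library (columns, phlebotomy left of control); red is above and blue below the mean of the 6 libraries. Slfn9 and the interferon-stimulated genes are high in phlebotomy 1 and 4, where phlebotomy 2 is at 0.19 for Slfn9 and -0.24 for the list, and Slfn1, Slfn4 and the neutrophil list share the low control 1 and the high control 4.

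Single genes were compared with these profiles in the same way. The nearest of 10581 genes is likely to lie closer than the nearest of 13 lists, so nothing is read from their smaller distances. Among 10581 named genes of at least 5 CPM, those near to the mean profile of the 7 included Rpl29, Cks1b, Tamm41, Spcs2, Supt4b, Ppa2, Acer3 and Atp5g1, at 0.046 to 0.061 log2 units over the 6 libraries. The single nearest gene was Npl for Slfn9 (0.12), Sdhb for Slfn2 (0.04), Mtm1 for Slfn3 (0.04), Lrrcc1 for Slfn5 (0.06), Atg5 for Slfn8 (0.07), Mgmt for Slfn1 (0.08) and Depdc1b for Slfn4 (0.09). Slfn9 had the largest distance to its nearest gene of the 7.

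The other genes of the pathways in which Schlafen proteins are known were read from 4 lists of 52 genes, all of which were tested. Like the marker lists, these were chosen with earlier results of these data known, so their counts are given as a description. Of these, 0 passed an adjusted p of 0.05 in edgeR, against 6 in DESeq2 and 17 in edgeR without phlebotomy 2. Over all genes DESeq2 called 0.414% higher and 1.09% lower, and edgeR without phlebotomy 2 called 1.75% higher and 2.99% lower. Interferon-stimulated antiviral genes had positive log2 fold changes in 19 of 20, with a median log2 fold change of 0.72, against 0.00 over all genes tested. Of the 20, 15 were higher and 0 lower before adjustment (p under 0.05), where 7.01% of all genes were higher and 9.42% lower, and after adjustment over all genes DESeq2 called 5 higher, beside 0.414% of all genes, and edgeR, with phlebotomy 2 left out, 12, beside 1.75%. Oas1a, an antiviral enzyme that is activated by double-stranded RNA, was at 23.7, 10.3 and 17.1 CPM in phlebotomy 1, 2 and 4, against 6.11, 6.995 and 8.87 CPM in control 1, 2 and 4 (log2 fold change 1.21 ± 0.28 SE, edgeR adjusted p 0.139). Its groups did not overlap, and phlebotomy 2 was the lowest phlebotomy library, as for Slfn9. For most genes of the list the groups did overlap. Ifi44 (1.45), the chemokine Cxcl10 (1.01) and Oasl2 (0.88) had the next smallest p (edgeR adjusted p 0.139, 0.145 and 0.160). As a list these genes lay at 0.80, -0.24 and 0.51 on the centred scale in phlebotomy 1, 2 and 4 while control 1, 2 and 4 lay at -0.42, -0.34 and -0.31. Slfn9 lay at 0.19 in phlebotomy 2, farther above its controls, which spanned -0.66 to -0.44.

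Interferon receptor and signalling genes had positive log2 fold changes in 6 of 17, and their median was -0.13. Before adjustment (p under 0.05) 3 were higher and 2 lower, beside 7.01% and 9.42% of all genes. After adjustment DESeq2 called 1 higher, and edgeR without phlebotomy 2 called 1 higher and 1 lower. Usp18, which removes ISG15 and dampens the receptor, was at 49.2, 14.7 and 31.4 CPM in phlebotomy 1, 2 and 4, against 12.2, 13.1 and 16.0 CPM in control 1, 2 and 4 (log2 fold change 1.204 ± 0.351 SE, edgeR adjusted p 0.187). Irf7 amplifies interferon production, and its log2 fold change was 0.68 (edgeR adjusted p 0.219). Socs3, a feedback inhibitor of cytokine signalling, was lower in all 3 phlebotomy libraries than in any control, at -0.57 (edgeR adjusted p 0.202).

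Genes of transfer RNA cleavage and protection were listed because mouse Slfn2 shields transfer RNA from the ribonuclease angiogenin. The log2 fold change was positive for 1 of 7, with a median of -0.14, and 0 were higher and 1 lower at an unadjusted p under 0.05, beside 7.01% and 9.42% of all genes. DESeq2 and edgeR without phlebotomy 2 called 0. Ang, which encodes angiogenin, was at 1.68, 1.498 and 1.39 CPM in phlebotomy 1, 2 and 4, against 3.45, 2.13 and 2.42 CPM in control 1, 2 and 4. Its log2 fold change was -0.79 ± 0.34 (SE, edgeR adjusted p 0.273). Rnh1, the ribonuclease inhibitor, and Elac2, which trims transfer RNA, had log2 fold changes of -0.23 and -0.16 (edgeR adjusted p 0.524 and 0.712). Lymphocyte quiescence genes were listed for the role of Slfn2 in resting T cells. Positive log2 fold changes were found in 0 of 9, with a median of -0.38. At an unadjusted p under 0.05, 4 were lower, beside 9.42% of all genes, and after adjustment over all genes 3 were lower in edgeR without phlebotomy 2, beside 2.99%, and 0 in DESeq2. Foxo1 and Klf2, transcription factors of resting lymphocytes, had log2 fold changes of -0.67 and -0.64 (edgeR adjusted p 0.169 and 0.201), Tsc1, a brake on mTOR, of -0.57 (edgeR adjusted p 0.222), and Tob1 of -0.49 (edgeR adjusted p 0.229). All 9 were measured in these bone libraries above the filter on low counts.

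Marker lists gave the cell types that could carry the Schlafen transcripts, and no marker was at 0 in all libraries. T cell markers were sparse, with sums of 23.2 to 26.7 CPM after phlebotomy and 26.2 to 32.9 CPM in control over 12 genes, and 2 of 12 had a positive log2 fold change. NK cell markers summed to 75.9 to 100 CPM after phlebotomy and 44.4 to 79.3 CPM in control (3 of 5 tested positive). Most of that sum was Nkg7, at 71.0 to 90.4 CPM after phlebotomy and 36.5 to 70.3 CPM in control. The log2 fold changes of the other tested NK markers were 0.24 (Klre1), 0.12 (Klrb1c), -0.10 (Gzma) and -0.57 (Eomes). Plasmacytoid dendritic cell markers summed to 19.3 to 22.0 CPM after phlebotomy and 16.9 to 19.9 CPM in control (3 of 3 positive). B lineage markers summed to 179 to 242 CPM after phlebotomy and 220 to 304 CPM in control (1 of 9). Monocyte and macrophage markers summed to 4370 to 5470 CPM after phlebotomy and 3783 to 6363 CPM in control (6 of 10 positive, median 0.09), neutrophil markers had 9 of 13 positive with a median of 0.16, erythroid markers 5 of 9 with 0.10, megakaryocyte markers 2 of 6 with -0.01 and osteocyte markers 1 of 8 with -0.65. Before adjustment (p under 0.05) 6 osteocyte, 3 B lineage and 1 T cell gene were lower, and 3 neutrophil, 3 erythroid, 2 monocyte and 1 NK cell gene higher, where 9.42% of all genes were lower and 7.01% higher. The 3 neutrophil genes were Ctsg (log2 fold change 1.25), Prtn3 (1.18) and Elane (0.51). Ltf (-0.39), Ngp (-0.39), Ly6g (-0.18) and Camp (-0.12) of the same list were negative, so the list did not move as a whole. Of the marker lists 0 genes passed over all genes in edgeR, against 2 neutrophil genes higher and 2 B lineage genes and 1 osteocyte gene lower in DESeq2, where 0.414% of all genes were higher and 1.09% lower. Without phlebotomy 2 edgeR called 2 neutrophil genes and 1 monocyte gene higher and 2 B lineage genes and 1 osteocyte gene lower, where 1.75% of all genes were higher and 2.99% lower. The part of cell types in the Schlafen levels was not tested.

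Genes around the cluster were read to see whether the whole stretch moved. Of 60 other annotated genes in it or within 500 kb, 25 were tested. Of these 13 had positive log2 fold changes. Their median was 0.01, with a range from -0.43 to 1.05, and 0 passed in edgeR. Unc45b, the nearest protein-coding gene before Slfn5, had 0.02 ± 0.35 (SE). Before adjustment (p under 0.05) 3 were higher and 0 lower, the chemokine Ccl5 (0.68 ± 0.24), Wfdc17 (1.05 ± 0.39) and AI662270 (0.56 ± 0.21), with edgeR adjusted p of 0.216, 0.254 and 0.237. Of all genes 7.01% were higher and 9.42% lower by that measure. Gm11425, Gm11427 and AI662270 were the tested other genes that lie between Schlafen genes. Their log2 fold changes were 0.13 ± 0.40, 0.37 ± 0.25 and 0.56 ± 0.21 (SE), all positive. Slfn9 thus lay between Slfn5 and Slfn8, at 0.30 and 0.43, with a log2 fold change above that of every other tested gene of the stretch.

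**Figure D5:**
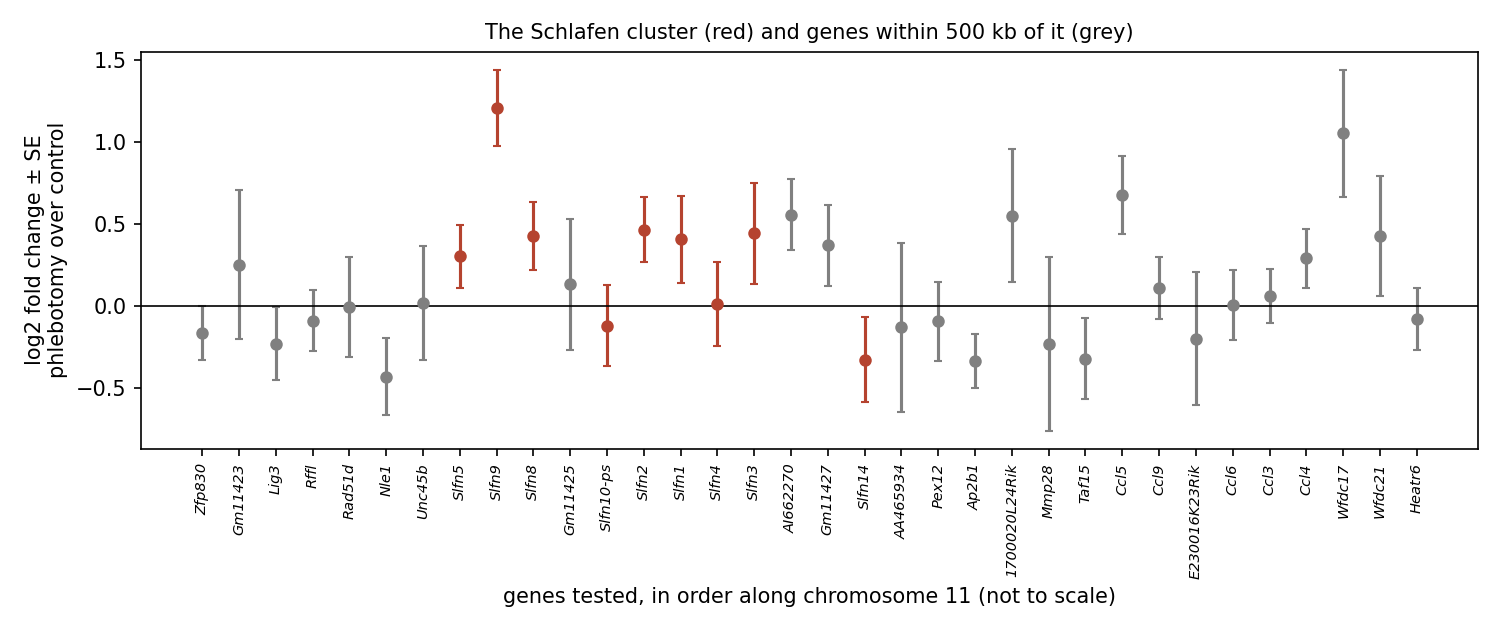
Log2 fold change ± SE, phlebotomy over control (vertical axis, edgeR), of the tested genes in order along chromosome 11 (horizontal axis, not to scale), Schlafen genes in red and other genes within 500 kb in grey. Slfn9, at 1.21, is the highest point, Wfdc17 at 1.05 has an SE of 0.39, and the median of the other genes is 0.01.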

How the data were processed

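Per the labels' protocols, libraries were made with Nextera XT, which does not mark strand, and read in 126 bp paired-end mode. Tools listed in the submitters' processing notes, with no roles, are limma, edgeR, DESeq2 and STAR in versions 2.5.2a and 2.7.3a, and the listed builds are mm10 and GRCm38.p3; the counting program is not given in the sources used here. The authors deposited raw counts per gene (55440 rows, 19 of them naming transgenes or other sequences that are no mouse gene, with 0.00278% to 0.0284% of counts, left out here), a filtered copy of 28533 rows and a scaled signal table that holds, per the file's name, CPM adjusted with TMM.

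After filterByExpr (minimum count 10) and TMM scaling, the robust quasi-likelihood test was run in R 4.3.3 (edgeR 4.0.16), without covariates, with Benjamini-Hochberg adjustment over 18838 genes and a threshold of 0.05. SE was derived from the F statistic. The fit was tested on simulated data. Levels are CPM from this TMM scaling, which differ from the deposited ones by a factor of 0.969 to 1.07 per library. Profiles used log2(CPM + 0.5). Alternatives were other scaling and filters, DESeq2 1.42.0, limma-voom, limma-trend on log2 of the deposited CPM (pseudocount 0.5 or 1; limma 3.58.1), a replicate block, paralog counts added up and each library left out; removal of a length trend was added after seeing the data. None of the 6 pairs of libraries within a group agreed within sampling noise. The members, lists, alternatives and naming rule were chosen with earlier results of these data known. The rule names the members, relatives, genes within 500 kb, up to 4 genes of each pathway list by smallest p, and the nearest genes in profile. Some genes that the rule names are not reported here.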

Additional observations from a re-analysis of the deposited data

Results flagged for a closer look

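Rows of the count table that name no mouse gene, which no comparison uses, held 0.0284% of the counts of phlebotomy 2, against at most 0.00361% in any control library, a signal above the control level in a library labelled WT. Slfn9 was at 12.3 CPM in that library, and its log2 fold change was 1.34 without it.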

How the results depend on the processing

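The median log2 fold change of the 7 members stayed positive in all alternatives run (0.31 to 0.55), as did that of each member except Slfn4, whose sign turned in 4 of 17. Slfn9 ran from 1.02 to 1.34 with a library left out, and was 1.31 with the length trend removed and 0.73 with Slfn8 and Slfn9 added up. The added-up Slfn3 and Slfn4 counts gave 0.03. Members past the threshold numbered 0, and 1, Slfn9, with no low-count filter, in DESeq2 and without phlebotomy 2 (0 to 1 with a library left out). Over all genes, 3 passed, against 577 with no low-count filter, 20 over the authors' filtered genes, 284 in DESeq2, 0 in limma-voom (3020 at an unadjusted p under 0.05) and 0 to 963 with a library left out, the highest without phlebotomy 2. Other counts were 14 without control 2, 7 without control 4 and 0 without phlebotomy 1. Pathway genes past the threshold numbered 0, against 9 with no low-count filter, 6 in DESeq2 and 0 to 17 with a library left out. The cause was not tested. Same-numbered libraries deviated from their group means with correlations of -0.147, -0.107 and -0.0929 across genes, against -0.0429 to 0.128 for differently numbered ones. This gave no sign of pairing by column number. It cannot exclude pairing, since deviations from a mean of 3 libraries are tied to one another. With the replicate block by number, 3 genes passed and the members' median was 0.42.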
